A study of Homo sapiens with 12 samples.

Results

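The 5 genes described here, CYBB, CYBA, NCF1, NCF4 and RAC2, encode subunits of the phagocyte NADPH oxidase. They were chosen by gene symbol, and each symbol's transcript rows were added up. All 5 were found among the 46639 symbols of the deposited table, and all 5 passed the filter on low values and were among the 10642 protein-coding genes tested. RNA-seq had been done on MOLM-13, a human acute myeloid leukemia (AML) cell line that carries the MLL-AF9 fusion. One group was left untreated. The others were given decitabine (DAC, which blocks DNA methylation) at 100 nM, all-trans retinoic acid (ATRA, a ligand of the retinoic acid receptors) at 1 µM, or DAC+ATRA. There were 3 libraries in each of the 4 groups. They are technical triplicates by their labels, so the p-values measure the spread within one experiment on one line. According to the labels, all cultures grew in RPMI with fetal calf serum and GM-CSF, and DAC was renewed daily on 3 consecutive days. No vehicle control library was analysed here. The labelled times are 96 h without treatment and 72 h with it, whereas the series' design text and the study's methods give 72 h for the harvest. If the labels are right, time in culture and treatment cannot be told apart. The study's methods place ATRA later than the first DAC dose, whereas the labels give the same time for both.

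The phagocyte oxidase moves electrons from NADPH across a membrane onto oxygen and so makes superoxide, the starting point of the respiratory burst of neutrophils and macrophages. CYBB (gp91phox, NOX2) is the catalytic membrane subunit and CYBA (p22phox) is the membrane partner that holds it stable. NCF1 (p47phox) is the organizer that becomes phosphorylated and carries the cytosolic complex to the membrane, NCF4 (p40phox) is a cytosolic subunit that binds phosphoinositides, and RAC2 is the small GTPase that completes the active enzyme in blood cells. Inherited loss of CYBB, CYBA, NCF1 or NCF4 causes chronic granulomatous disease. Expression of the subunits rises as myeloid cells mature, and both retinoic acid and interferon are known to raise oxidase genes in myeloid cell lines.

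The 5 genes responded to the drugs in different ways. CYBB rose 5.81-fold with DAC and 6.70-fold with DAC+ATRA, and did not pass the test with ATRA. NCF1 rose 9.23-fold with ATRA and did not pass the test with DAC, and in DAC+ATRA it reached only 0.492 of its ATRA level. CYBA rose 1.94-fold with ATRA and 1.95-fold with DAC+ATRA. RAC2 fell to 0.751 of its untreated level with ATRA, by a call that was lost when most single libraries of either group were left out, and NCF4 passed no test.

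Library depth, as reads recovered from the table, was 8.95 to 11.9 M (M stands for mega) in the untreated group, 4.67 to 6.95 M with DAC, 8.36 to 10.7 M with ATRA and 5.61 to 7.16 M with DAC+ATRA. The groups that received DAC were thus shallower, as a whole, than the other two, and the part of depth in the results was not tested. Each member still had at least 49 reads in every library, the lowest being NCF4 in DAC+ATRA. Of 10 myeloid markers, 9 were tested and LYZ had the highest normalised counts, while CSF2RA was at 0 in all libraries. Their summed level was 52561 to 64912 normalised counts in untreated, 169582 to 214232 in DAC, 15738 to 21427 in ATRA and 59909 to 63013 in DAC+ATRA. Of 5 T cell markers, only TRAC passed the filter and CD2 was at 0. Their summed level was 509 to 562 in untreated, 324 to 372 in DAC, 19.2 to 36.7 in ATRA and 29.6 to 43.4 in DAC+ATRA. Of 4 fibroblast markers, only COL1A1 passed the filter and COL1A2 and COL3A1 were at 0. Their sum was 4.87 to 11.3 in untreated, 19.1 to 26.1 in DAC, 64.5 to 86.3 in ATRA and 39.2 to 60.2 in DAC+ATRA. The B cell, erythroid, megakaryocyte, NK cell and epithelial lists summed to at most 72.5 normalised counts in any library. The myeloid sum was higher with DAC and lower with ATRA than in untreated, and in DAC+ATRA it lay within the untreated range. The T cell sum was lower and the fibroblast sum higher in all 3 treatments, without overlap with untreated. The part of these markers in the results on the members was not tested. The myeloid sum was carried by LYZ, and its genes did not move as one, since ITGAM (named after its values were seen) rose with ATRA from a mean of 9.58 to 57.3 normalised counts (log2 2.52, adjusted p = 3.42e-06). In bulk RNA, more cells of one kind and more RNA per cell cannot be told apart.

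The promoter windows of CYBB, CYBA and NCF1 are shown because the RefSeq table (GRCh38.p14) held only these 3 of the 5 members. They are also the 3 members that rose, each with a different drug pattern. Each window has 250 bases before and 50 after the start site. Only the 250 bases before the start are printed, in the direction of transcription. Capitals mark matches on either strand to GAGGAA, the core bound by ETS factors such as PU.1, or to a pair of GAAA with 2 bases between them, a spacing bound by interferon regulatory factors. The CYBB stretch is chrX:37779809-37780058 on the plus strand, that of CYBA is chr16:88651054-88651303 on the minus strand, and that of NCF1 is chr7:74773761-74774010 on the plus strand.
CYBB: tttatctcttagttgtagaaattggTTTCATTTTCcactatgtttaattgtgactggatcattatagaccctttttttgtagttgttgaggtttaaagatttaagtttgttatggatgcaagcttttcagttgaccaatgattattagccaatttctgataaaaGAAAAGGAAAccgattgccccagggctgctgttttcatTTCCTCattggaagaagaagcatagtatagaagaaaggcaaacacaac
CYBA: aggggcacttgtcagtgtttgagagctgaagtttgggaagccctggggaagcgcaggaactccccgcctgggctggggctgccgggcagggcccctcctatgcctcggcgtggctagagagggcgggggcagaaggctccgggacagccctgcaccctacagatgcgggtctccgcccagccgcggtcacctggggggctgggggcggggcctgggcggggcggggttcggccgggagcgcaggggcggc
NCF1: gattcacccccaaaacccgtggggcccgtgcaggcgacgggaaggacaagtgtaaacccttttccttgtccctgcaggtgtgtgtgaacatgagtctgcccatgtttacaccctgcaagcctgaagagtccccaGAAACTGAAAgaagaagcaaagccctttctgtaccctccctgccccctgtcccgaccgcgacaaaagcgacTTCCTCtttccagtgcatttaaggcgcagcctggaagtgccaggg

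The 3 windows differed most in their CpG sites. Over the whole 300 bases, CYBB held 1 CpG, CYBA 23 and NCF1 11, against a median of 14 and quartiles of 4 and 28 over 35116 promoters of the same length. CYBB thus lay at percentile 3.96 of these promoters, CYBA at percentile 64.2 and NCF1 at percentile 45.3. DNA methylation was not measured in these libraries. CYBB had a GAGGAA match at bases -48 to -43 and NCF1 one at -45 to -40, counted from the start site as 0, and both lay on the strand opposite to transcription. The motif was present in 27.9% of all promoters and was not found in the CYBA window. The GAAA pair, searched on both strands, was found at -225 to -216 and -86 to -77 in CYBB, at -116 to -107 in NCF1 and not in CYBA, and 3.57% of all promoters held it. CCAAT, searched on both strands, was found at 4 places in CYBB and in neither of the others, against 34.6% of all promoters. The retinoid half-site AGGTCA was searched on both strands together with its variants, namely GGGTCA, the form AGTTCA and the form GGTTCA. They were found in none of the 3 windows, while 38.6% of all promoters held at least one. In CYBB the CCAAT match at -230 to -226 ends where a GAAA pair begins, and the GAGGAA match ends where the CCAAT match at -42 to -38 begins, in both cases without a shared base.

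**Figure D1:**
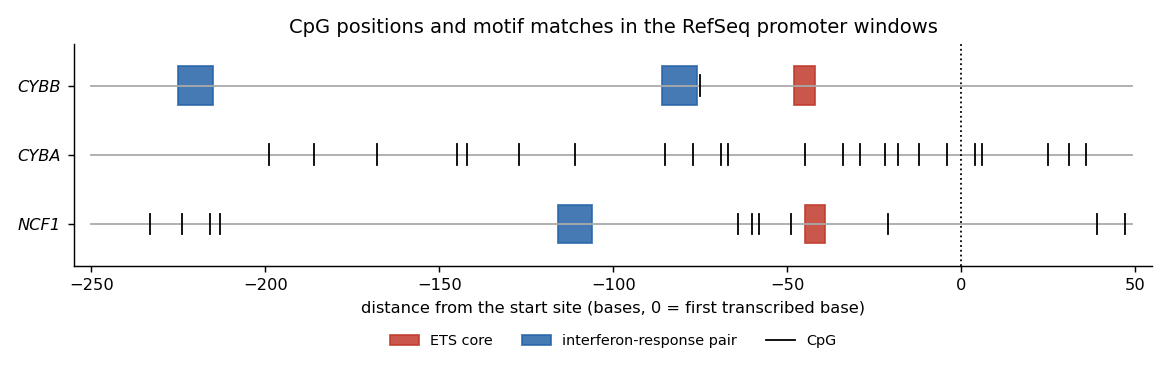
Positions of CpG sites (black ticks), ETS core matches (red) and interferon-response pairs (blue) in the promoter windows of CYBB, CYBA and NCF1, by distance from the start site in bases. CYBB has 1 CpG site against 23 in CYBA and 11 in NCF1, and CYBB and NCF1 share an ETS core match at almost the same distance.

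CYBB, the catalytic subunit, is ENSG00000165168.9 at chrX:37780018-37813461 on the plus strand (GENCODE 44, GRCh38), and its counts came from 1 transcript row. Its normalised counts were 943, 1029 and 888 in the untreated libraries 1 to 3, and 5225, 4949 and 6551 with DAC. With ATRA they were 1209, 930 and 988, and with DAC+ATRA 6525, 6200 and 6430. All 6 libraries that received DAC were above all 6 that did not, and ATRA libraries overlapped with untreated ones. DAC against untreated gave a log2 fold change of 2.54 with an SE of 0.12 (5.81-fold, 95% interval 4.89 to 6.91, limma adjusted p = 4.38e-11). By size of the rise this was the 62nd of the 10642 genes. CYBB was the one member called in this comparison, in which 7.97% of all tested genes were called, 4.29% higher and 3.67% lower.

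ATRA left CYBB at 1.09-fold of the untreated level, with a 95% interval of 0.915 to 1.29 (adjusted p = 0.464). DAC+ATRA against untreated gave 6.70-fold (5.64 to 7.97, adjusted p = 1.05e-12), and DAC+ATRA against ATRA gave 6.16-fold (5.18 to 7.32, adjusted p = 1.63e-11), the 53rd largest rise among the tested genes. Adding ATRA to DAC changed CYBB by 1.15-fold (0.970 to 1.37, adjusted p = 0.213), which did not pass the test. The interaction is the change that DAC made in the presence of ATRA less the change it made in its absence. For CYBB it was 0.08 on the log2 scale (95% interval -0.27 to 0.44, adjusted p = 0.895). The order of the mean levels was untreated, ATRA, DAC and DAC+ATRA, and of these neighbours only ATRA and DAC passed the test against each other. A protein-coding gene, ENSG00000250349, spans CYBB on the same strand. Of the 4227 windows of 50 bases in the counted CYBB transcript, 0 occur in a transcript of another gene. The part of ENSG00000250349 in the CYBB counts was not tested.

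**Figure D2:**
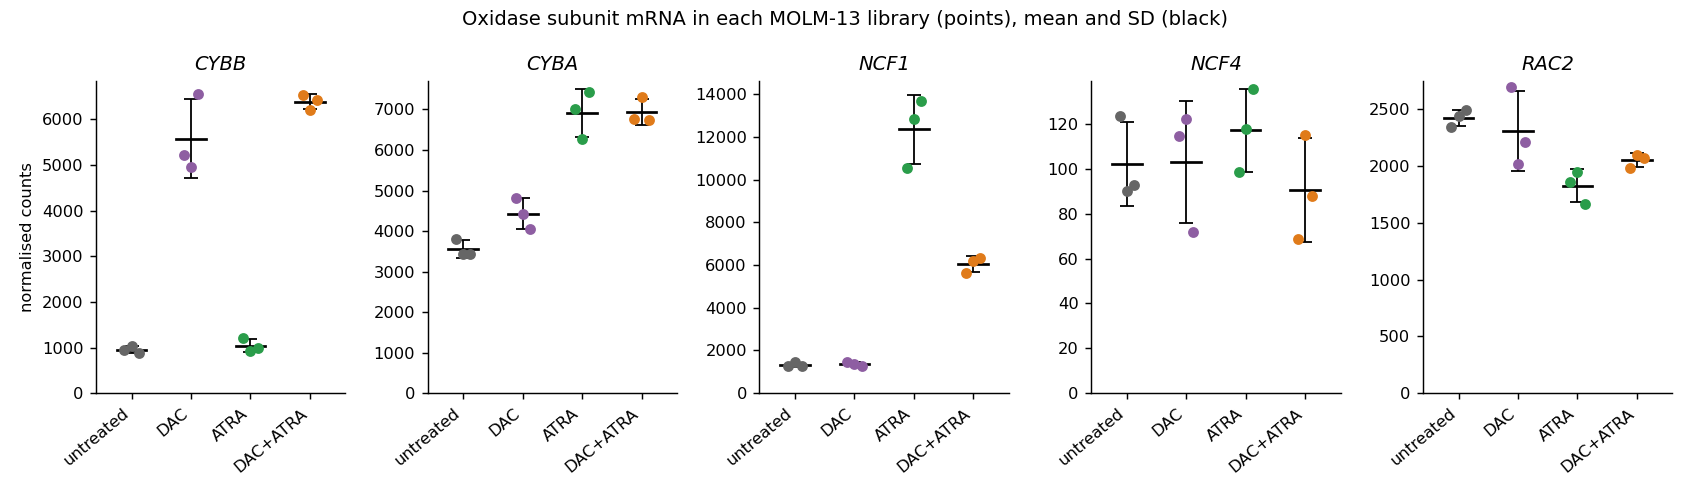
Normalised counts of the 5 oxidase subunits in each library (points) by group, with group means and SD in black (n = 3 each) and a separate linear axis from 0 in each panel. CYBB is high in both groups with DAC, NCF1 is highest with ATRA and intermediate with DAC+ATRA, CYBA is high in both groups with ATRA, and NCF4 overlaps in all groups.

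CYBA, the membrane partner of CYBB, is ENSG00000051523.12 at chr16:88643275-88651083 on the minus strand. Of its 3 transcript rows, CYBA-201 held 93.4% of the counts. Its normalised counts were 3801, 3427 and 3439 in untreated and 4814, 4429 and 4046 with DAC. With ATRA they were 7001, 6281 and 7443, and with DAC+ATRA 6758, 7302 and 6735. Both groups with ATRA lay above both groups without it, and DAC libraries lay above the untreated ones without overlap.

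ATRA raised CYBA 1.94-fold (95% interval 1.68 to 2.24, log2 0.96 with an SE of 0.10, adjusted p = 3.24e-07). It was 1 of 3 members called with ATRA, 2 higher and 1 lower, in a comparison in which 26.0% of all tested genes were called, 12.1% higher and 14.0% lower. DAC+ATRA raised it 1.95-fold (1.69 to 2.26, adjusted p = 3.12e-07), as 1 of 3 members called, all higher, where 28.9% of tested genes were called, 14.5% higher and 14.4% lower. The rise with DAC was 1.24-fold (1.08 to 1.44) and missed the threshold of 0.01 (adjusted p = 0.0393). Without DAC replicate 3, the lowest DAC library for this gene, the log2 change of CYBA was 0.38 and passed (adjusted p = 0.00795), so that 2 members were then called with DAC. Over all genes, the same omission raised the calls from 848 of 10642 to 1385 of 10584.

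Adding ATRA to DAC raised CYBA 1.57-fold (1.35 to 1.81, adjusted p = 5.79e-05), as 1 of 2 members called, both higher, where 18.8% of tested genes were called, 9.04% higher and 9.74% lower. Adding DAC to ATRA gave 1.01-fold (0.869 to 1.16, adjusted p = 0.967). The interaction was -0.31 (95% interval -0.61 to -0.01) and did not pass after adjustment (adjusted p = 0.318). In the order untreated, DAC, ATRA and DAC+ATRA, only the neighbours DAC and ATRA passed the test at 0.01; untreated and DAC did not overlap but missed it.

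NCF1, the organizer subunit, is ENSG00000158517.16 at chr7:74774011-74789315 on the plus strand, with 1 transcript row. Its normalised counts were 1292, 1446 and 1257 in untreated and 1439, 1385 and 1256 with DAC. With ATRA they were 10546, 12858 and 13666, and with DAC+ATRA 5617, 6190 and 6329. The DAC and untreated libraries overlapped, the DAC+ATRA libraries stood above both, and the ATRA libraries stood above all others.

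NCF1 has near-identical copies nearby, NCF1B and NCF1C, which were not analysed here. Of the 1300 windows of 50 bases in the NCF1 transcript, 83.9% also occur in a transcript of NCF1B or NCF1C, and of the 1250 windows of 100 bases 63.5% do. None of the other members shared a window with another gene in this way. The level of NCF1 is therefore uncertain, because reads may be split among the copies or dropped.

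ATRA raised NCF1 9.23-fold (95% interval 7.88 to 10.8, log2 3.21 with an SE of 0.11, adjusted p = 2.33e-14), the 154th largest rise of all tested genes. DAC gave 1.02-fold (0.871 to 1.20, adjusted p = 0.894). DAC+ATRA against untreated gave 4.54-fold (3.87 to 5.32, adjusted p = 9.01e-12), and DAC+ATRA against DAC gave 4.44-fold (3.79 to 5.21, adjusted p = 1.24e-11). Both rises in the presence of DAC were thus smaller than the rise with ATRA alone.

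DAC+ATRA against ATRA showed this directly. NCF1 was lower, at 0.492 of the ATRA level (95% interval 0.419 to 0.576, adjusted p = 1.60e-06), while CYBB was higher. These were the 2 members called in this comparison, in which 11.9% of tested genes were called, 6.47% higher and 5.46% lower. The NCF1 interaction was -1.05 on the log2 scale with an SE of 0.15 (95% interval -1.38 to -0.73, adjusted p = 4.14e-04). NCF1 was the one member called for the interaction, where 1.6% of tested genes were called, 0.724% higher and 0.874% lower. The call was kept under all 26 alternative settings. Its groups ordered as untreated, DAC, DAC+ATRA and ATRA, and all neighbours but the first pair passed the test.

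**Figure D3:**
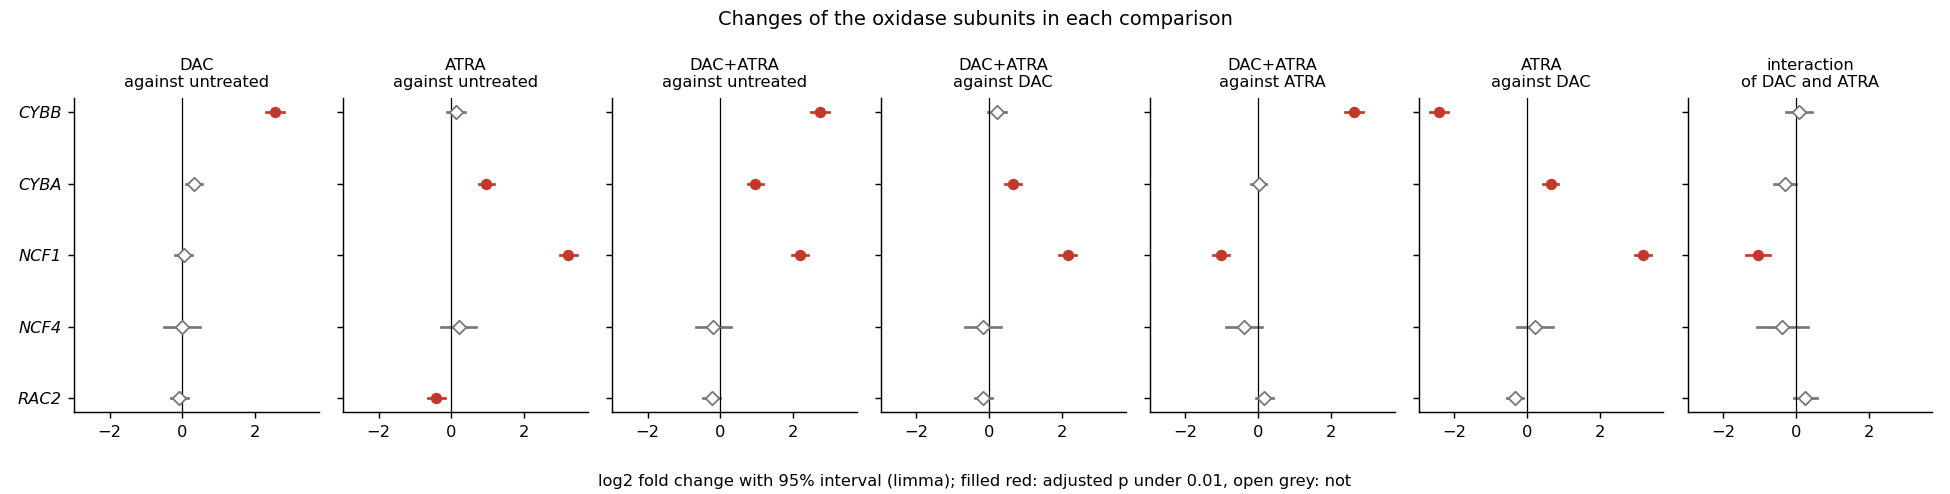
Log2 fold changes of the 5 subunits with 95% intervals in 6 comparisons between groups and in the interaction, from one limma fit over 12 libraries. Filled red points passed an adjusted p of 0.01, and NCF1 is the one member with a called interaction.

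NCF4, the phosphoinositide-binding subunit, is ENSG00000100365.16 at chr22:36860988-36878017 on the plus strand. NCF4-202 held 97.1% of its counts, and 2 of its 6 rows had reads. Its normalised counts were 124, 90.1 and 92.8 in untreated and 114, 122 and 71.8 with DAC. With ATRA they were 98.6, 118 and 135, and with DAC+ATRA 68.6, 115 and 87.8. Every pair of groups overlapped. Against untreated, the fold was 0.991 with DAC (95% interval 0.707 to 1.39, adjusted p = 0.980), 1.15 with ATRA (0.819 to 1.61, adjusted p = 0.550) and 0.876 with DAC+ATRA (0.625 to 1.23, adjusted p = 0.545). With 49 to 162 reads a library, NCF4 had the fewest reads of the 5 members, and these intervals allow changes of up to 1.61-fold. The antisense gene NCF4-AS1, which overlaps NCF4 on the other strand, had a mean of 0.0907 normalised counts.

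RAC2, the GTPase, is ENSG00000128340.16 at chr22:37225270-37259594 on the minus strand, and RAC2-201 held 99.3% of its counts. Its normalised counts were 2349, 2440 and 2491 in untreated and 2698, 2020 and 2210 with DAC. With ATRA they were 1862, 1950 and 1665, and with DAC+ATRA 1982, 2097 and 2076. The ATRA libraries lay below all 9 others, whereas DAC libraries spread on both sides of the untreated ones. ATRA lowered RAC2 to 0.751 of untreated (95% interval 0.642 to 0.879, log2 -0.41 with an SE of 0.11, adjusted p = 0.00538). The call was lost without any one of the 3 untreated libraries (adjusted p = 0.0129, 0.0229 and 0.0220 without untreated replicates 1, 2 and 3) and without ATRA replicate 1 or 3 (0.0104 and 0.0333).

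The other RAC2 comparisons did not pass. DAC+ATRA gave 0.846 of untreated (0.722 to 0.990, adjusted p = 0.0844) and DAC gave 0.945 (0.807 to 1.11, adjusted p = 0.680). ATRA against DAC gave 0.795 (0.679 to 0.931, adjusted p = 0.0200), which passed without DAC replicate 2 (adjusted p = 0.00732). In that comparison CYBB was lower, at 0.187 (0.158 to 0.223), and CYBA and NCF1 were higher, at 1.56-fold (1.35 to 1.80) and 9.04-fold (7.71 to 10.6). These 3 members were called, where 29.4% of tested genes were, 13.2% higher and 16.2% lower. From ATRA through DAC+ATRA and DAC to untreated, no neighbouring RAC2 levels passed the test, although the ATRA and DAC+ATRA libraries did not overlap (adjusted p = 0.294).

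The balance of CYBB and NCF1 counts moved with treatment. The ratio has no meaning as a number of molecules, because it compares genes of different length. NCF1 reads may also be split among its copies or dropped. The ratio can be compared between groups, but the part of the copies in it was not tested. NCF1 counts per CYBB count were 1.40 ± 0.024 (SD, n = 3) in untreated and 0.249 ± 0.0496 with DAC. They were 12.1 ± 2.94 with ATRA and 0.948 ± 0.0756 with DAC+ATRA. The ranges of the 4 groups did not overlap. CYBB counts per CYBA count, the 2 membrane subunits, were 0.269 ± 0.0276, 1.27 ± 0.299, 0.151 ± 0.0201 and 0.923 ± 0.0643 in the same order of groups. This ratio was highest in the groups with DAC.

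**Figure D4:**
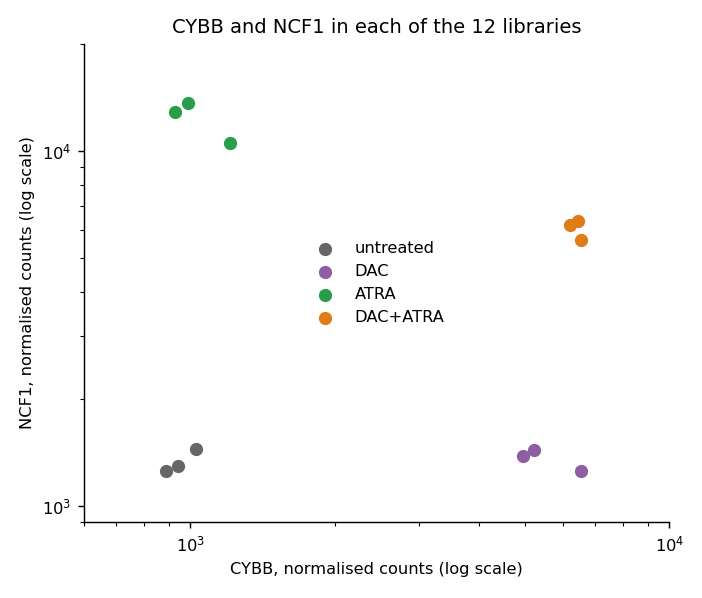
NCF1 against CYBB in each of the 12 libraries, as normalised counts on log axes, coloured by group (n = 3 each). The groups occupy separate corners: untreated low for both, DAC high for CYBB, ATRA high for NCF1, and DAC+ATRA high for CYBB with NCF1 between untreated and ATRA.

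Other genes were ranked by how closely they followed each member, as Pearson's r of log2(normalised count + 1) over the 12 libraries. These values describe the same libraries and were not tested. CYBB was followed most closely by DCAF4L1 (r = 0.991), TMED3 (0.982) and GTSF1 (0.977), and GTSF1 was at 0 in every untreated and ATRA library. CYBA was followed by DZIP1L (0.989), SLC25A20 (0.989) and ITGB7 (0.983). NCF1 was followed by CD1D (0.997), FAM43A (0.996) and LCAT (0.994), and CD1D was at 0 in every untreated and DAC library. The means of FAM43A were 327, 302, 4878 and 1859 normalised counts in untreated, DAC, ATRA and DAC+ATRA. FAM43A was picked for following NCF1, so its lower level with both drugs than with ATRA alone is no separate result. For NCF4 and RAC2, the highest r was lower, at 0.904 for PPP1CB and 0.942 for NUDT19.

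The other parts of the oxidase system were taken as gene lists. Of 32 partners and regulators, which assemble, phosphorylate or stabilise the enzyme, 30 were tested. With DAC, 4 were higher and 0 lower (median log2 change of the list 0.13, against -0.00 over all tested genes). With ATRA, 10 were higher and 5 lower (0.31, against -0.04), and with DAC+ATRA 10 were higher and 6 lower (0.29, against -0.00). The share of the list called was 13.3%, 50% and 53.3%, against 7.97%, 26.0% and 28.9% of all tested genes. Without DAC replicate 3, 7 were called with DAC, while over all genes the calls rose from 848 to 1385.

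S100A9 and S100A8, the calcium-binding pair that brings arachidonic acid to the oxidase, moved in opposite directions with the 2 drugs. S100A9 was at 467, 363 and 363 normalised counts in untreated, at 3933, 3999 and 4425 with DAC and at 41.2, 47.6 and 48.5 with ATRA. DAC raised it by 3.38 (log2, adjusted p = 1.29e-12) and ATRA lowered it by a log2 change of -3.08 (adjusted p = 3.18e-13). S100A8 changed by 2.72 with DAC (adjusted p = 8.52e-05) and by -2.96 with ATRA (adjusted p = 6.67e-06). The ATRA libraries held only 2 to 8 reads of S100A8, so the fitted size of its fall with ATRA depends on the pseudocount. In DAC+ATRA S100A9 was at 441, 466 and 441, within the range of the untreated libraries, whereas S100A8 was at 7.0, 12.4 and 20.4 against 31.9, 30.0 and 39.5 in untreated. That fall of S100A8 was called (log2 -1.39, adjusted p = 0.00839), and the call was lost in 10 of 25 alternative settings, among them without any one of the untreated libraries.

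The kinases that phosphorylate NCF1 were among the other called partners. PRKCA was at 373, 407 and 331 in untreated and at 1384, 1401 and 1437 with DAC+ATRA. It rose by 1.21 (log2) with DAC (adjusted p = 2.67e-07) and by 1.93 with both drugs (adjusted p = 3.30e-11). With ATRA alone PRKCA was called higher as well, at 718, 671 and 750. PRKCB rose by 1.41 with DAC+ATRA (adjusted p = 1.55e-09), and it was also called higher with ATRA alone. Its means were 1474 in untreated, 3216 with ATRA and 3917 with DAC+ATRA. PRKCZ went the other way, from 87.9, 90.1 and 79.0 in untreated to 47.6, 31.5 and 32.7 with DAC+ATRA (log2 -1.20, adjusted p = 3.80e-04). Its fall with ATRA (-0.84, adjusted p = 0.00746) lost its call in 6 of 25 alternative settings, among them without any one of the untreated libraries. PRKCD was called higher in all 3 treatments, by 2.64, 2.38 and 3.15, but its untreated libraries held 0 to 4 reads, so the fitted size depends on the pseudocount. Its calls with DAC and with ATRA were each lost without at least one library, among them untreated replicate 1 in both. PIK3R5, a subunit of the phosphoinositide 3-kinase, was called higher with ATRA by 2.68 from 0 to 5 reads a library in untreated, and that call too was lost without untreated replicate 1 (adjusted p = 0.0129). PIK3CD, the catalytic subunit of another such kinase, rose by 1.75 with DAC+ATRA (adjusted p = 4.32e-06). It too was called higher with ATRA alone, with means of 93.9 in untreated, 278 with ATRA and 319 with DAC+ATRA.

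RAC1 and RAC3, the relatives of RAC2, were also on the list, and RAC1 is named after its values were seen. RAC1 was at 859, 912 and 916 in untreated, and it rose by 0.65 (log2) with ATRA (adjusted p = 6.82e-05) and by 0.77 with DAC+ATRA (adjusted p = 1.05e-05). RAC3 was at 164, 163 and 176 in untreated and at 67.2, 46.9 and 49.3 with ATRA, and like RAC2 it fell with ATRA (log2 -1.62, adjusted p = 6.11e-07), and also with DAC+ATRA (-0.85, adjusted p = 8.25e-04). RAC3 was the one partner called for the interaction, at 1.23 (adjusted p = 0.00782). It made up 3.33% of the 30 partners tested, against 1.6% of all tested genes called. The RAC3 call was lost in 12 of 24 alternative settings, among them leaving out any one of the untreated libraries. Of the 10 other NADPH oxidases and their partners, only NOXA1 passed the filter, and it is named after its values were seen. The limma fit did not call it in any comparison. Its log2 change of -1.41 in DAC+ATRA against ATRA (adjusted p = 0.0118) was called by DESeq2 and edgeR, and by limma without untreated replicate 1 or DAC replicate 3, among other settings.

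**Figure D5:**
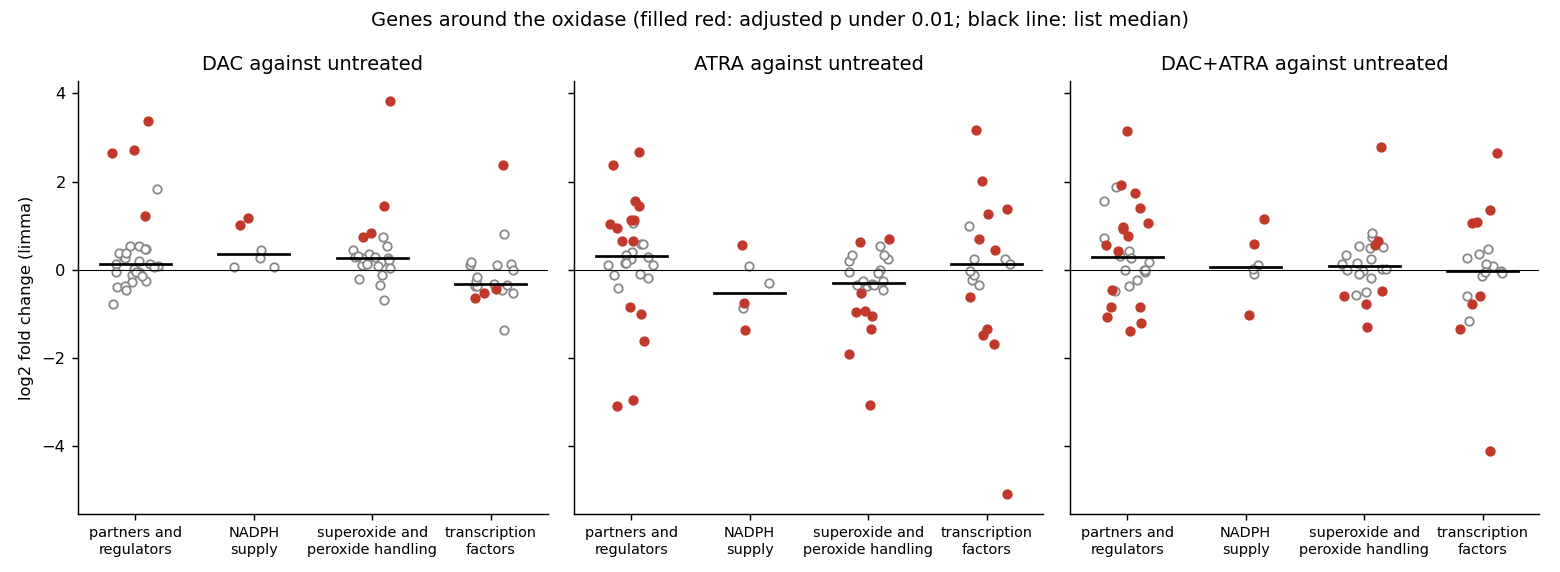
Log2 fold changes against untreated of genes in 4 lists around the oxidase, with one point per tested gene, filled red where the limma adjusted p was under 0.01, and black lines at list medians. S100A9 and S100A8 are the highest partners with DAC and the lowest with ATRA.

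Among genes that supply NADPH, PGD, an enzyme of the pentose phosphate pathway, rose in all 3 treatments, by 1.01 (log2) with DAC, 0.57 with ATRA and 1.14 with DAC+ATRA. ME1, the malic enzyme of the cytosol, fell with ATRA by 1.36 and with DAC+ATRA by 1.02, and the latter call was lost without any one of the untreated libraries, among others (adjusted p of up to 0.0223).

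Of 26 genes that handle superoxide and peroxide, 24 were tested. With DAC 4 were higher and 0 lower, with ATRA 2 were higher and 7 lower, and with DAC+ATRA 3 were higher and 4 lower. The share called was 16.7%, 37.5% and 29.2%, against 7.97%, 26.0% and 28.9% of all tested genes, so that with DAC+ATRA it was near that of all genes. The list medians were 0.26, -0.30 and 0.08, against -0.00, -0.04 and -0.00 over all tested genes. MPO, the myeloperoxidase that uses hydrogen peroxide made from superoxide, rose by 3.83 with DAC (adjusted p = 4.38e-11) and by 2.78 with DAC+ATRA (adjusted p = 3.18e-10). With ATRA alone MPO was called lower, at 1059, 776 and 580 normalised counts against 1513, 1515 and 1511 in untreated. In DAC+ATRA it was lower than with DAC (log2 -1.05, adjusted p = 1.49e-04). EPX, the eosinophil peroxidase, rose by 1.45 with DAC and fell by 3.07 with ATRA. CAT, the catalase that breaks down hydrogen peroxide, fell by 1.91 with ATRA (adjusted p = 1.37e-10), and it rose by 0.75 with DAC, which missed the threshold in a fit of the DAC and untreated libraries alone (adjusted p = 0.0137).

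Of 22 transcription factors known at promoters of oxidase genes, 19 were tested. With DAC 1 was higher and 3 lower, with ATRA 6 were higher and 5 lower, and with DAC+ATRA 4 were higher and 4 lower. The share called was 21.1%, 57.9% and 42.1%, against 7.97%, 26.0% and 28.9% of all tested genes. The list medians were -0.33, 0.12 and -0.04, against -0.00, -0.04 and -0.00 over all tested genes. The count with DAC fell from 4 to 1 without untreated replicate 2 and to 2 without DAC replicate 2. Over all genes, the same omissions lowered the calls with DAC from 848 to 508 and from 848 to 602. SPI1 (PU.1), which binds the ETS core and is named after its values were seen, passed no test, at 342, 345 and 335 in untreated and at 344, 467 and 428 with DAC+ATRA. IRF1, an interferon regulatory factor, rose by 3.16 with ATRA (adjusted p = 1.12e-12) and by 2.65 with DAC+ATRA (adjusted p = 1.91e-11).

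CEBPE, a factor of late granulocyte maturation, was at 348, 295 and 301 in untreated, 1814, 1598 and 1469 with DAC, 94.1, 96.0 and 99.5 with ATRA, and 794, 831 and 794 with DAC+ATRA. It rose by 2.37 with DAC (adjusted p = 7.97e-11), fell by 1.69 with ATRA (adjusted p = 8.51e-10) and rose by 1.36 with both drugs (adjusted p = 2.30e-08). GATA2 fell by 5.09 with ATRA (adjusted p = 9.65e-11) and by 4.12 with DAC+ATRA (adjusted p = 2.46e-09). For the interaction, 2 of the 19 tested factors were called (10.5%, against 1.6% of all tested genes). MEIS1 was lower by a log2 value of -1.13 (adjusted p = 0.00125), a call lost with the highest transcript row alone (0.0134). CEBPA was higher by 0.92 (adjusted p = 0.00814). The CEBPA call was lost in 13 of 24 alternative settings, among them leaving out any one of the ATRA or DAC+ATRA libraries. All 3 comparisons against untreated share the same 3 untreated libraries.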

How the data were processed

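RNA of 12 MOLM-13 libraries was depleted of ribosomal RNA and sequenced as strand-specific paired ends. According to the labels and the study's methods, the authors used STAR (genome hg38), HTSeq for counts per transcript, and DESeq2, in versions not given in the sources used here. The deposited values are a normalised signal, the read counts of each library divided by 1 size factor; 100% of them came out as whole reads within a tolerance of 0.01. They are called normalised counts. Reads that fit several transcripts may have been left out, so levels of different genes cannot be compared as amounts of RNA. Columns named CTRL were taken as untreated.

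Rows (100502) were summed per symbol and annotated with GENCODE 44, which held 88.9% of them. A protein-coding gene entered if 3 libraries or more had 10 or more normalised counts. The test was limma 3.58.1 (R 4.3.3, eBayes with trend) on log2(normalised count + 1), all 12 libraries in 1 fit, with Benjamini-Hochberg adjustment and calls at adjusted p under 0.01. A fold is on this scale and understates low genes. Named were the 5 members, the 3 genes most like each, and up to 4 called genes per list and comparison by size of change; exceptions are marked in the text. The members and lists were chosen with earlier results of these data known. The alternatives used the recovered reads in edgeR 4.0.16 and in DESeq2 1.42.0, other scalings, filters, pseudocounts and thresholds, single transcript rows, only the compared groups, a replicate block, and leaving out each library. The test was checked on simulated data. Some genes of the lists are not reported here.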

Additional observations from a re-analysis of the deposited data

Results flagged for a closer look

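The interaction of DAC and ATRA for NCF1 was -1.05 (log2), the effect of DAC with ATRA minus its effect without ATRA. It is listed because the effect of DAC differed between cells with and without ATRA by a test of the difference itself (limma adjusted p = 4.14e-04). The 3 DAC+ATRA libraries all lay under the 3 ATRA libraries, while DAC and untreated libraries overlapped. NCF1 shares 83.9% of its 50-base windows with NCF1B or NCF1C, and the part of these copies in the result was not tested.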

How the results depend on the processing

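Of 940 alternative values of the members' log2 changes, 911 kept their direction and their side of the threshold, 5 passed it newly, 11 no longer passed it and 13 turned sign. Those that turned sign were uncalled values, the largest in size being 0.224 for NCF4 with DAC. Leaving out single libraries moved DAC against untreated from -0.011 to 0.091 for NCF1, from -0.155 to 0.224 for NCF4 and from -0.199 to 0.0095 for RAC2. It moved NCF4 from -0.416 to 0.0027 in DAC+ATRA against DAC and from -0.026 to 0.354 in ATRA against DAC, and CYBA from -0.059 to 0.063 in DAC+ATRA against ATRA. With the highest transcript row alone, NCF4 was at 0.027 with DAC and CYBA at -0.0029 in DAC+ATRA against ATRA. On TMM factors, this CYBA value was -0.019 with edgeR and -0.015 with limma.

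The number of members called with DAC was 1 to 2 when single libraries were left out and 2 at an adjusted p under 0.05; over all genes the calls with DAC were 848, rising to 1385 without DAC replicate 3 and to 1638 at 0.05. With a change over 2-fold also required, 1 member was called with ATRA and 1 in DAC+ATRA against DAC. Over all genes, this lowered the calls from 2772 to 1561 with ATRA and from 1998 to 1085 in DAC+ATRA against DAC. CYBA lost its call in both, and also in DAC+ATRA against untreated and in ATRA against DAC. RAC2 in DAC+ATRA against untreated passed when only the compared groups were fitted (adjusted p = 0.0098). The NCF1 interaction ranged from -1.16 to -0.98. Samples with the same replicate number did not deviate together (r from -0.26 to 0.11 over 18 pairs). For samples with different numbers, r was -0.16 to 0.25 over 36 pairs. With 3 libraries in each group, this check cannot exclude that the numbers pair the samples. With a replicate block, RAC2 with ATRA kept its log2 change of -0.41 but lost its call (adjusted p = 0.0103), and it was the one member call lost under the block. Of 933 counts over the lists, 870 stayed within 1.5 times. The causes of these changes were not tested. NCF4 had the fewest reads of the members, 49 to 162 a library.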
